A study of Mus musculus with 3 samples.

Results

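The lipocalin and odorant-binding genes of the mouse vomeronasal organ (VNO) were followed by cell class and library. The list held 9 names: Lcn3, Lcn4, Lcn11, Lcn13, Lcn14, Obp1a, Obp1b, Obp2a and Obp2b. RefSeq gives Lcn13 as another name of Obp2a and Lcn14 as another name of Obp2b, so the 9 names stood for 7 of the 32285 genes counted. Dissociated, frozen and thawed VNO cells of male mice on a mixed C57 BL/6J 129P2/OlaHsd background had been profiled on the 10x Genomics platform in 3 libraries. The P10 control was OMPCre Heterozygous at postnatal day 10, the P10 mutant was OMPCreR26AP2e Double Heterozygous at the same age, and the 3-month mutant had that double genotype at 3 months. All 3 groups therefore carried OMPCre, in which Cre is driven from Omp, a gene of mature sensory neurons. Each group was 1 library, so there was no replicate, no test and no p-value, and genotype or age could not be told apart from the library. The intervals given in brackets are exact 95% intervals (Poisson for levels, binomial for shares and ratios), and cover counting error only.

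Lipocalins are small secreted proteins folded into a cup that carries hydrophobic molecules. Lcn3 and Lcn4 encode the vomeronasal secretory proteins of the glands that empty into the VNO lumen, and the odorant-binding proteins encoded by the Obp genes are made by glands of the nose and bind volatile odorants. They are thought to carry odorants or pheromones through the mucus to the receptors of the vomeronasal sensory neurons (VSNs). Their messages are among the most abundant of a gland cell.

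The 7 genes lie at 3 places of the GRCm38 genome, all protein coding. Obp2a (chr2:25700043-25703326), Obp2b (chr2:25737009-25740097), Lcn3 (chr2:25765569-25768099) and Lcn11 (chr2:25777017-25780279) follow each other on the + strand, with gaps of 33682, 25471 and 8917 bases. Lcn4 (chr2:26667674-26671282, - strand) is 887394 bases from Lcn11. Obp1a (chrX:78085505-78091374, - strand) and Obp1b (chrX:78186777-78192292, + strand) are 95402 bases apart. The 100 bases before the start of each gene are shown because neighboring members differed widely in level while Obp2a and Obp2b ran together. They are from RefSeq (GRCm38.p6), written 5′ to 3′ on the strand of the gene, and end at the base before the earlier of the RefSeq and GENCODE starts. Capitals mark TATAAA.
Obp2a, chr2:25699943-25700042, +: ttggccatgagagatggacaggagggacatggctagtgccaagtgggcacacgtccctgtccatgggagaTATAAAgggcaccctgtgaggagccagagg
Obp2b, chr2:25736907-25737006, +: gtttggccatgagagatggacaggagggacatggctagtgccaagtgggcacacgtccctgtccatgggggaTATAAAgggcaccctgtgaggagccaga
Lcn3, chr2:25765433-25765532, +: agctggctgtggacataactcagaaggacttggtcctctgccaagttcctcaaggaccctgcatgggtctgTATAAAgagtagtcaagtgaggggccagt
Lcn11, chr2:25776917-25777016, +: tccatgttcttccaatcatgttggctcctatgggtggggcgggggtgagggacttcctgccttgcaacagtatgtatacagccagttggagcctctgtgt
Lcn4, chr2:26671283-26671382, -: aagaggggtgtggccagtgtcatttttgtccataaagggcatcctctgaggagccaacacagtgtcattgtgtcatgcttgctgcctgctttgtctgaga
Obp1a, chrX:78091375-78091474, -: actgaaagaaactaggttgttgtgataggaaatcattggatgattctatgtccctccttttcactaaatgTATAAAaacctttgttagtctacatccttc
Obp1b, chrX:78186677-78186776, +: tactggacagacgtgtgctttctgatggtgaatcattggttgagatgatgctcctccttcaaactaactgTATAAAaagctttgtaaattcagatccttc

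The Obp2a and Obp2b stretches differed by 5 edits and were 95% alike, and those of Obp1a and Obp1b were 69% alike. TATAAA was searched on both strands of the RefSeq window of 300 bases around each start and was found for 5 of the 7 members, against 13.6% of all 32851 windows. In Obp2a, Obp2b, Lcn3, Obp1a and Obp1b it began 28 to 30 bases before the end of the stretch shown. TGTTTAC was found for 0 of the 7 members and in 3.65% of all windows, and AGAACA for Lcn11 and Obp1a and in 19.0% of all windows. Between the transcripts, Obp2a and Obp2b shared 14.0% and 14.2% of their stretches of 31 bases, while Obp1a and Obp1b shared 0. Obp1b shared 80.7% of its stretches with the predicted gene Gm14743 and Obp1a 15.8% with Gm5938. Reads from these stretches cannot be assigned to 1 gene, so the level of Obp1b is the least certain. Gm14743 itself had 35, 1 and 8 UMIs in the P10 control, P10 mutant and 3-month mutant libraries.

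The libraries held 8202, 8864 and 10293 barcodes with 83870584, 80760046 and 70074800 UMIs, and 4795, 3956 and 6960 barcodes had 200 to 9000 genes and at most 10% mitochondrial UMIs. The median depth of the kept barcodes was 10236, 10766 and 5010.5 UMIs, and 31.8%, 25.6% and 26.3% of them were in clusters that could not be named. Of the kept barcodes, 4 to 9 were shared between any 2 libraries. Tfap2e, the gene the R26AP2e allele is named for, was at 19.9 [16.4, 24.0] UMIs per 1000000 UMIs (CPM) in mature VSNs of P10 control VNO, 533 [506, 562] in P10 mutant VNO and 208 [191, 226] in 3-month mutant VNO, as the labels imply. In the gland-like cells described next it had 1 UMI in P10 control VNO, 104 UMIs over 67 of 142 cells in P10 mutant VNO and 15 UMIs over 10 of 88 cells in 3-month mutant VNO. These were 0.234, 39.0 and 4.48 CPM, against 0.563, 15.1 and 12.7 in immune cells. Omp was at 1.17, 0.375 and 0.298 CPM in the gland-like cells, against 367, 313 and 300 in mature VSNs.

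Gland cells were taken from 1 of 43 clusters, built without the members and their relatives among the clustering genes. It held 209 cells of P10 control VNO (4.36% [3.80, 4.98] of the kept barcodes), 142 of P10 mutant VNO (3.59% [3.03, 4.22]) and 88 of 3-month mutant VNO (1.26% [1.02, 1.56]). Its leading genes were Scgb1b27, Scgb2b27, Car6, Dmbt1, Wfdc18, Ltf and Pip, and 18 of the 30 listed gland markers stood out, so the cells are called gland-like. Dmbt1, a mucosal scavenger protein, was at 5763, 8122 and 15598 CPM in them and at 95.2, 55.5 and 187 in all other cells of the same libraries. Wfdc18, a secreted protein of glands, was at 57069, 64177 and 238095. Lactotransferrin (Ltf) was at 15367, 8029 and 19621. Several other markers of nasal glands were at or near 0, among them Lpo with 2, 1 and 0 UMIs, Odam with 1, 3 and 0, and Bpifb1 with 0 in all 3. Marker lists of 5 other classes summed to 7.25 to 194 CPM in gland-like cells of the P10 control, 9.75 to 159 of the P10 mutant and 10.1 to 62.7 of the 3-month mutant. The highest sums were those of mature VSN markers, against 5670, 4192 and 3066 CPM in mature VSNs. The 9 macrophage and monocyte markers summed to 7.25, 9.75 and 25.7 CPM in the gland-like cells, against 13806, 13862 and 18102 in macrophages and monocytes.

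Gland-like cells held most of the member UMIs. They held 81.4% [81.3, 81.5] of the 634153 member UMIs of P10 control VNO, 89.3% [89.2, 89.4] of the 269225 of P10 mutant VNO and 76.9% [76.8, 77.0] of the 1260900 of 3-month mutant VNO, with 6.87%, 4.94% and 5.85% of all UMIs. The summed level was 120696 [120367, 121025] CPM in gland-like cells of P10 control VNO, 90195 [89835, 90556] in P10 mutant VNO and 289346 [288770, 289922] in 3-month mutant VNO. In other words, 7 genes made up 12.1%, 9.02% and 28.9% of what was counted in these cells. Immune cells, taken here as cells that do not make these proteins, had 785 [762, 810], 155 [146, 165] and 3536 [3506, 3567] CPM. That premise was not tested. The gland-like level was thus 154-fold [149, 158], 580-fold [547, 616] and 81.8-fold [81.1, 82.6] that of the immune cells of the same library.

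**Figure D1:**
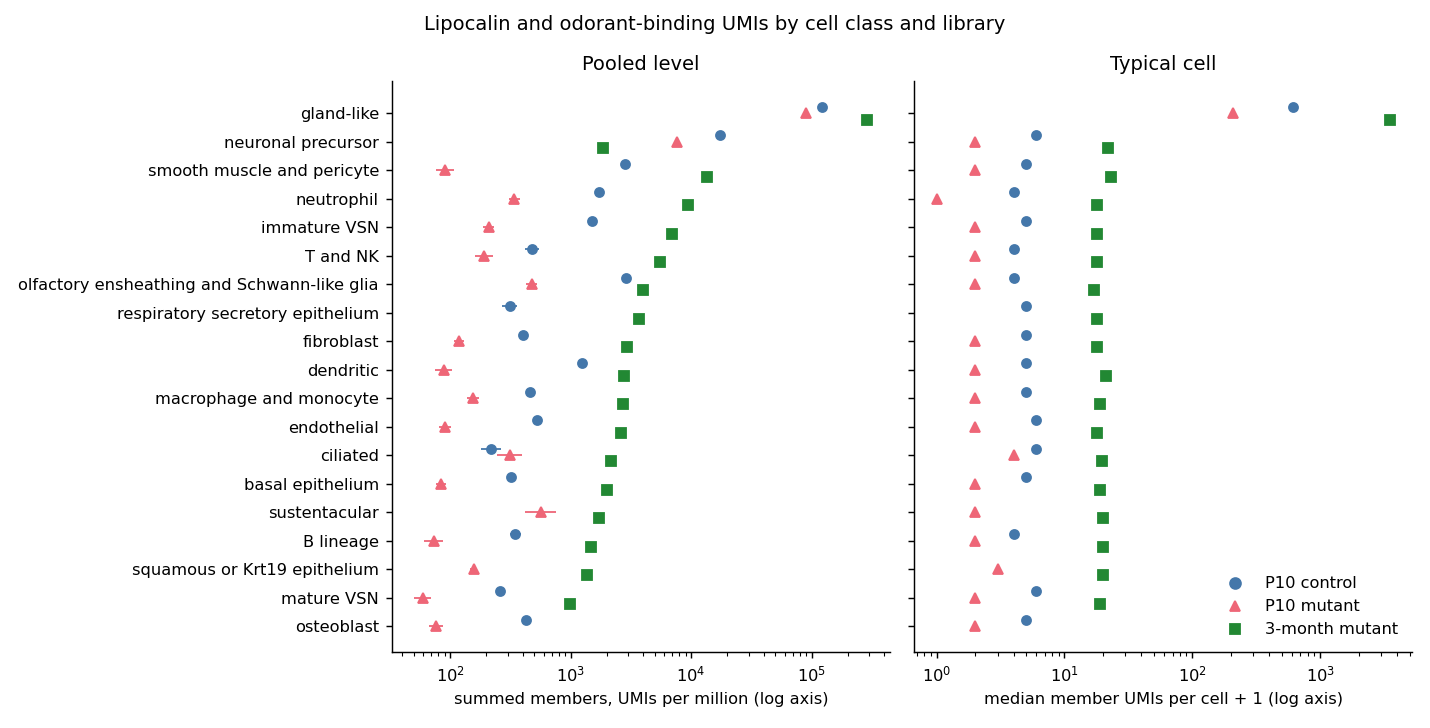
Left, summed UMIs of the 7 members as CPM (log axis, with 95% Poisson intervals) by named cell class, for the P10 control (circles), P10 mutant (triangles) and 3-month mutant (squares). Right, the median number of member UMIs per cell plus 1 (log axis): outside the gland-like cells it hardly moved between classes and differed between libraries.

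Outside the gland-like cells a few member UMIs per cell were counted in every class, and their number differed more between the libraries than between the classes. Over the 15 other named classes of the P10 control with at least 20 cells the median was between 3 and 5 member UMIs per cell. Over the 16 such classes of the P10 mutant it was between 0 and 2, and over the 17 of the 3-month mutant between 16 and 22. A member UMI was seen in 93.4% of immune cells of P10 control VNO, 54.9% of P10 mutant VNO and 99.95% (2005 of 2006) of 3-month mutant VNO, and the shares in VSNs were 94.8%, 60.4% and 99.7%. After thinning each cell to 500 UMIs the shares in immune cells were 33.2%, 11.6% and 76.7%, and those in gland-like cells 83.3%, 61.3% and 89.8%. A UMI of a member in a cell, or even 10 of them at 3 months, is therefore not read as expression here.

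The number per cell moved less than the depth did. In the 3-month library the median was 17, 17, 17 and 19.5 member UMIs in 4 sets of immune cells of like size, ordered by depth, while their median depth went from 2196 through 3762 and 6769 to 12699 UMIs. In the P10 control it was 3, 3, 3 and 4 over depths of 2146 to 15715, and in the P10 mutant 0, 1, 1 and 1 over depths of 2286 to 15059. The P10 mutant mean went from 0.903 to 1.72 and the share of cells with a member UMI from 44.2% to 66.8%. Per depth the same UMIs went from 10540 to 1813 CPM between the shallowest and the deepest set at 3 months. The level of a shallow class was accordingly high: neutrophils, with a median of 2424 UMIs, had 9342 CPM at 3 months and mature VSNs, with 25134, had 987.

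**Figure D2:**
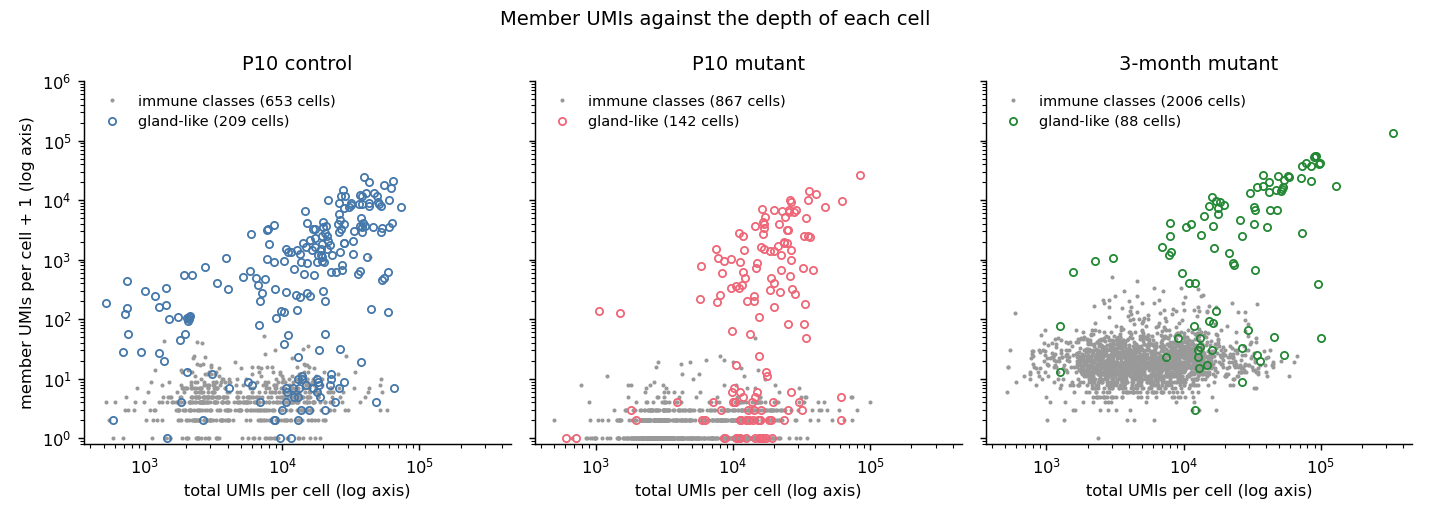
Each point is 1 cell, with its total UMIs (x, log axis) and its member UMIs plus 1 (y, log axis), for immune cells (grey) and gland-like cells (colored) of each library. Immune cells form a band whose height differs between libraries (medians of 3, 1 and 18 member UMIs). From that band the gland-like cells reach up to 24270, 26054 and 134592 member UMIs.

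Outside the gland-like cells the shares of Lcn3 and Obp2a were also alike between 4 broad groups of classes of a library. Leaving out barcodes with at least 100 member UMIs that made up at least 3% of their UMIs, Lcn3 was 42.3% to 48.3% of the member UMIs in immune cells, VSNs, stromal cells and other epithelium of the P10 mutant, and Obp2a 45.2% to 52.9%. In the 3-month mutant Lcn3 was 22.5% to 24.1% and Obp2a 59.9% to 64.1% in the same 4 groups. In the P10 control Lcn3 was 42.8% to 54.0% and Obp2a 39.4% to 48.9%, with the upper value for Lcn3 in immune cells, where 1 cell held 26.1% of the member UMIs. In gland-like cells of the P10 control 43.9% Lcn3 and 42.8% Obp2a lay within these ranges. The Obp2a value did so only through the immune cells, as the other groups had 44.9% to 48.9%. Lcn11 lay outside the range of the 4 groups, with 7.32% against 3.06% to 3.66%. So did Obp1a, with 2.72% against 0.358% to 0.690%, and Lcn4, with 0.233% against 0.552% to 0.751%. Single classes spread more widely than the pooled groups. Lcn11 was 1.26% [0.709, 2.08] in neutrophils and 7.56% [5.87, 9.55] in macrophages and monocytes of the P10 control, so its gland-like share was not outside every class. At 3 months Obp1a was 0.277% in olfactory ensheathing and Schwann-like glia and 7.65% in mature VSNs. Gland-like cells of the P10 mutant lay outside the ranges of the 4 groups of their library, with 55.8% [55.6, 56.0] Lcn3 and 38.9% [38.7, 39.1] Obp2a. Those of the 3-month mutant also lay outside the ranges of the 4 groups of their library, with 29.7% [29.6, 29.7] Lcn3 and 58.5% [58.4, 58.6] Obp2a.

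Lcn3 was found in most gland-like cells at both ages. Per cell it ran from 0 through a median of 318 to 7238 UMIs in P10 control VNO, from 0 through 187.5 to 9626 in P10 mutant VNO, and from 0 through 1060.5 to 52422 in 3-month mutant VNO. The 3 ranges overlapped, and the highest 3-month cell lay above every P10 cell in UMIs, but not as a share of the cell. The highest share of a cell's UMIs was 25.3%, 26.7% and 19.7%, and the deepest gland-like cells had 73379, 84239 and 336153 UMIs. At least 100 Lcn3 UMIs were counted in 126 of 209, 76 of 142 and 62 of 88 gland-like cells, and in 1 of 653, 0 of 867 and 0 of 2006 immune cells. The level was 53012 [52794, 53231] CPM in P10 control VNO, 50347 [50078, 50617] in P10 mutant VNO and 85818 [85505, 86132] in 3-month mutant VNO. It was 1.70-fold [1.69, 1.72] higher at 3 months than in the P10 mutant.

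Lcn4, the partner of Lcn3 among the vomeronasal secretory proteins, was nearly missing at P10. Its level was 281 [265, 297] CPM in gland-like cells of P10 control VNO, 43.9 [36.3, 52.6] in P10 mutant VNO and 14699 [14569, 14829] in 3-month mutant VNO. Per cell it ran from 0 through a median of 0 to 758, from 0 through 0 to 34, and from 0 through 5 to 18098 UMIs. At least 100 UMIs were counted in 1, 0 and 25 gland-like cells, and in 0 immune cells of any library. The 3-month level was 335-fold [279, 405] that of the P10 mutant and 52.4-fold [49.4, 55.5] that of the P10 control, the latter with 63.1% of its UMIs in 1 cell. The first ratio was 328 without the richest cell of each library, 211.5 with at most 5% mitochondrial UMIs and 183 with gland cells taken one by one. Of the 3-month Lcn4 UMIs 36.7% were in 1 cell, without which the level was 10336 CPM. The ratio of 328 also left out the richest P10 mutant cell, which held 29.1% of the Lcn4 UMIs there. In the 37 gland-like cells of the 3-month library with at least 10 Lcn4 UMIs, the median cell had 17.5 Obp2a UMIs for each Lcn4 UMI. Immune cells reached 10 Lcn4 UMIs in 12 of 2006 cells of that library.

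Obp2a and its neighbor Obp2b were both higher at 3 months than at P10. Obp2a was at 51715 [51499, 51931] CPM in P10 control VNO, 35084 [34859, 35309] in P10 mutant VNO and 169209 [168769, 169650] in 3-month mutant VNO, and Obp2b was at 3569 [3513, 3627], 2582 [2521, 2643] and 16432 [16295, 16570]. The 3-month level was 4.82-fold [4.79, 4.86] that of the P10 mutant for Obp2a and 6.37-fold [6.21, 6.53] for Obp2b. With at most 5% mitochondrial UMIs, which left 28 gland-like cells in the P10 mutant, the ratio for Obp2a was 17.9. Per cell Obp2a ran from 0 through a median of 4 to 17337 UMIs, from 0 through 1 to 14957, and from 2 through 816 to 55953. At P10 the median gland-like cell was within the range of the immune cells, which reached 31 and 18 Obp2a UMIs, whereas at 3 months it was above the highest immune cell, at 230. At least 100 Obp2a UMIs were counted in 29.7% [23.6, 36.4], 21.1% [14.7, 28.8] and 60.2% [49.2, 70.5] of gland-like cells. Among cells with at least 10 Obp2a UMIs the median cell had 0.0688, 0.0660 and 0.0859 Obp2b UMIs for each Obp2a UMI, the highest at 3 months.

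Lcn11 went another way. It was at 8830 [8741, 8919] CPM in gland-like cells of P10 control VNO, 2139 [2084, 2195] in P10 mutant VNO and 2912 [2854, 2970] in 3-month mutant VNO. At least 100 UMIs were counted in 18 of 209, 3 of 142 and 7 of 88 cells, and 1 cell held 26.7%, 86.8% and 70.2% of its UMIs. Without the richest cell of each library the levels were 6567, 286 and 880 CPM, and the ratio of the 3-month to the P10 mutant went from 1.36 [1.32, 1.41] to 3.08. It was 1.09 with the libraries clustered separately, 3.07 with at least 500 genes and 419 with at most 5% mitochondrial UMIs, so no size is given to the difference between the ages for Lcn11. The 14 gland-like cells led by Lcn11 in the P10 control differed in other secretions too. They had 26941 CPM of Scgb1b27 and 37319 of Scgb2b27, which encode secretoglobins, against 2.47 and 36.1 in the 105 cells led by Lcn3. Ltf was at 58396 against 11514, Car6, a secreted carbonic anhydrase, at 12958 against 59.3, and Dmbt1 at 4.07 against 9067.

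Obp1a was confined to few gland-like cells. In the P10 control it had 14035 UMIs, and the 4 cells with at least 100 had 6237, 4749, 2837 and 148. Each of these cells also had 733 to 6803 Lcn11 UMIs and at most 6 of Lcn3. Obp1b had 35 UMIs, all in the cell with 148 of Obp1a. In the P10 mutant both were at 0 UMIs in gland-like cells, where 3 UMIs would be 1.13 CPM. In the 3-month mutant Obp1a had 711 UMIs, of which 529 were in 1 cell with 680 Lcn11 UMIs, and Obp1b had 214. The Obp1b level of 63.8 [55.6, 73.0] CPM was no higher than that of immune cells, 73.3 [69.0, 77.9], and is read as background.

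**Figure D3:**
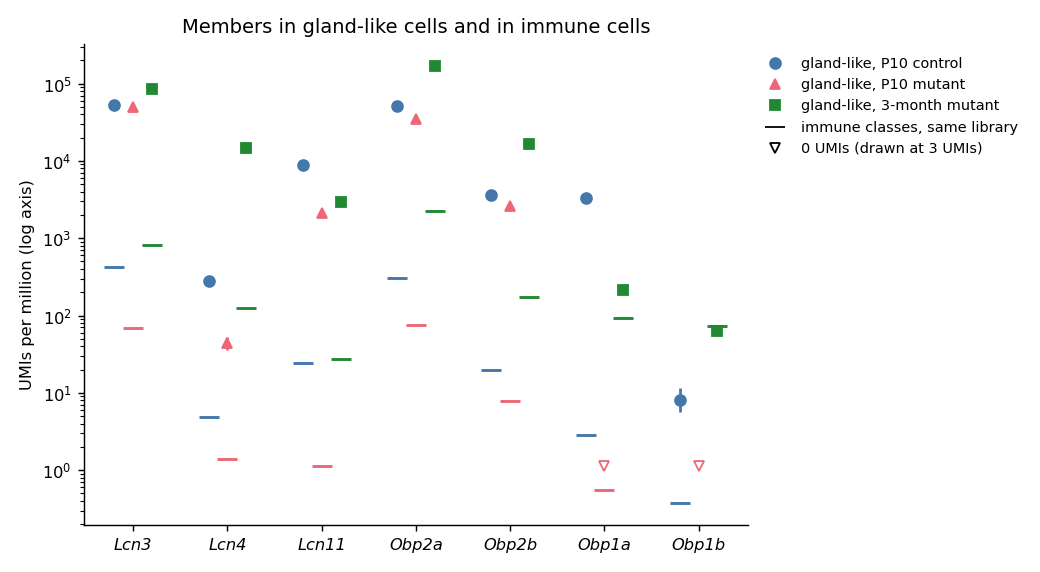
CPM (log axis, 95% Poisson intervals mostly smaller than the symbols) of each member in gland-like cells of the 3 libraries, with the immune cells of the same library as short lines and open triangles for 0 UMIs, drawn at 3 UMIs. Lcn4, Obp2a and Obp2b were highest in the 3-month mutant, Lcn11 and Obp1a in the P10 control, and Obp1b at 3 months sat at the immune level.

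Gland-like cells fell into kinds by the member they held most of. Of the cells with at least 20 member UMIs, Lcn3 held 50% or more in 105 of 163 cells of P10 control VNO (64.4% [56.5, 71.7]), 69 of 85 of P10 mutant VNO (81.2% [71.2, 88.8]) and 25 of 82 of 3-month mutant VNO (30.5% [20.8, 41.6]). Obp2a did so in 39 (23.9% [17.6, 31.2]), 15 (17.6% [10.2, 27.4]) and 51 (62.2% [50.8, 72.7]), and Lcn11 in 14, 1 and 2. Since 44.6% of immune cells at 3 months also reached 20 member UMIs, the count was repeated at 200, which 0.798% of them reached. The share led by Obp2a was then 36 of 131 (27.5% [20.05, 36.0]), 15 of 72 (20.8% [12.2, 32.0]) and 38 of 64 (59.4% [46.4, 71.5]), so the order of the libraries held. The threshold of 200 was chosen after the values were seen.

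Lcn3 without Obp2a was common at P10, and Obp2a without Lcn3 was rare there. Of the 150 gland-like cells of the P10 control with at least 10 Lcn3 UMIs 76 had at least 10 of Obp2a, and of the 86 such cells of the P10 mutant 34. In contrast, 76 of 77 and 34 of 34 cells with at least 10 Obp2a UMIs had at least 10 of Lcn3. At 3 months 68 of 70 Lcn3 cells also reached 10 Obp2a UMIs and 68 of 81 Obp2a cells reached 10 of Lcn3, but so did 62.3% and 14.6% of immune cells, so pairs at this limit are not read as joint expression at that age. Gland-like cells led by Lcn3 and by Obp2a differed in other genes of the P10 control. Ltf was at 11514 against 73.6 CPM and Wfdc18 at 82016 against 25910. In the P10 mutant Ltf was at 11397 against 241. At 3 months the contrast in Ltf was smaller, at 33395 against 14881. Scgb1c1 changed sides at that age, and Dmbt1 was nearly level. Scgb1c1 was at 248 against 1.05 CPM in the P10 control and 411 against 2.15 in the P10 mutant, but at 486 against 10660 at 3 months. Dmbt1 was at 9067 against 3180, 12405 against 3860, and 13999 against 15074. The groups led by 1 member were taken at 20 member UMIs, which 44.6% of immune cells reached at 3 months. At that age Obp2a led 51 cells at 20 member UMIs and 38 cells at 200. These contrasts were not repeated at 200, so background may have a part in those of the 3-month library.

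**Figure D4:**
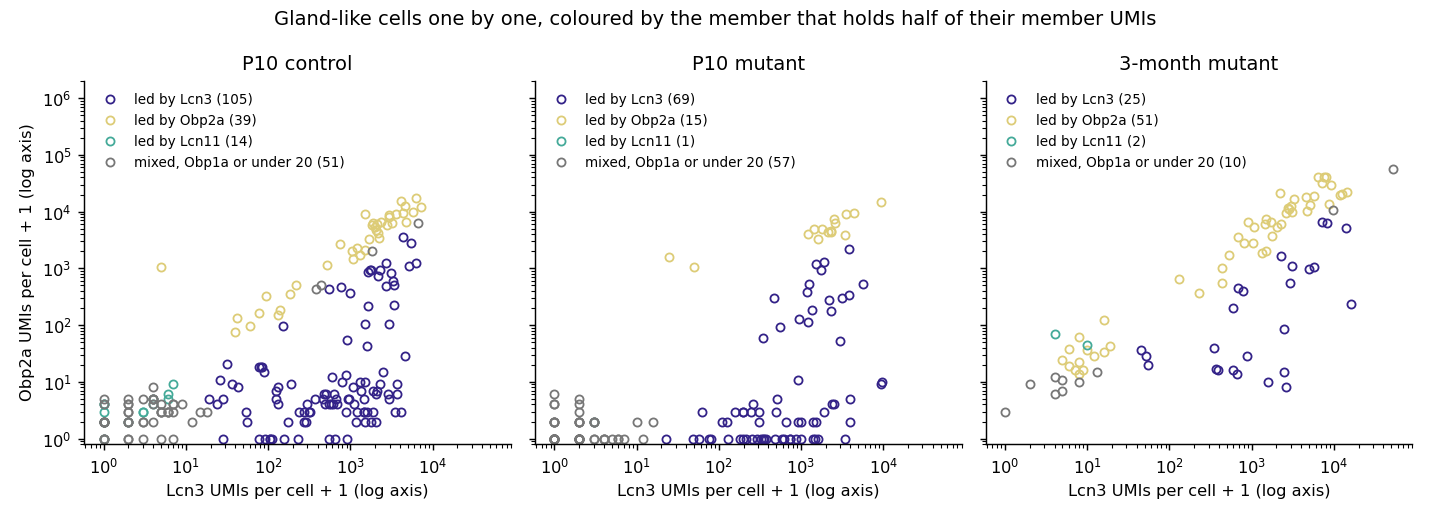
Each circle is 1 gland-like cell, with its Lcn3 UMIs plus 1 (x, log axis) and Obp2a UMIs plus 1 (y, log axis), colored by the member that held at least 50% of its member UMIs, with the number of cells in the legend. At P10 most cells led by Lcn3 (105 and 69 cells) lie low on the Obp2a axis, while at 3 months 51 of 88 cells are led by Obp2a.

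Member levels were compared between the ages within the same genotype, P10 mutant and 3-month mutant. The summed level in gland-like cells was 3.21-fold [3.19, 3.22] higher at 3 months. In the median gland-like cell the members were 20.3% of the UMIs at 3 months against 1.62% in the P10 mutant. Cells with under 20 member UMIs enter these medians, and were 6 of 88 at 3 months and 57 of 142 in the P10 mutant. All 7 members were compared, and 5 of them (Lcn4, Obp1a, Obp1b, Obp2a and Obp2b) were at least 2-fold higher and 0 at least 2-fold lower, against 1.81% and 59.4% of the 11121 genes with at least 10 UMIs in the 2 libraries together. The median log2 ratio was 2.67 for the members and -1.16 for all genes compared. Levels in CPM add to a fixed total, of which the members and Wfdc18 took more at 3 months. With the members and their relatives left out of the denominator the summed ratio was 4.11, and Lcn3 was at 2.18-fold. The gland-like cells of the 3-month library were also deeper, with a median of 26092 UMIs against 15894, and fewer, at 1.26% of barcodes against 3.59%. The part of these differences in the result was not tested. Obp1a, with 711 UMIs against 0, was at least 189-fold higher and Obp1b, with 214 against 0, at least 56.7-fold higher, with 3 UMIs taken for all gland-like cells of the P10 mutant. However, 74.4% of the 3-month Obp1a was in 1 cell, without which it was at 54.65 CPM, below the 91.9 of immune cells, and with which it was at 212, against 202 in all other cells. Obp1b was at its immune level. Neither is read as higher in the gland-like cells as a class, which leaves Lcn4, Obp2a and Obp2b. For Lcn4, 36.7% of the 3-month UMIs were in 1 cell, without which it was at 10336 CPM.

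Between the P10 mutant and the P10 control, which differ in genotype, the summed level was 0.747-fold [0.744, 0.751]. The median gland-like cell differed more, with 1.62% of its UMIs from members in the P10 mutant against 6.26% in the P10 control. Cells with under 20 member UMIs were 57 of 142 and 46 of 209. Lcn3 was the nearest to equal, at 0.9497-fold [0.943, 0.956], followed by Obp2b at 0.723-fold [0.703, 0.744] and Obp2a at 0.678-fold [0.673, 0.684]. Lcn4 was at 0.156-fold [0.128, 0.189] and Lcn11 at 0.242-fold [0.236, 0.249]. Of the 7 members 0 were at least 2-fold higher and 4 (Lcn4, Lcn11, Obp1a and Obp1b) at least 2-fold lower, against 6.24% and 4.11% of 11869 genes. These 4 were the members with at least 10 UMIs in the fewest gland-like cells. Without the richest cell of each library Lcn4 was at 0.300-fold and Lcn11 at 0.0436-fold. With 1 library a group, the difference of Lcn3 was smaller than that between its own settings: with at most 5% mitochondrial UMIs, which kept 87 and 28 gland-like cells, the ratio was 1.43. Under the same limit Obp2a was at 0.231-fold.

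The member UMIs outside the gland-like cells also differed between the libraries. Immune cells held a mean of 6.41, 1.28 and 25.2 member UMIs per cell. The gland-like cells of each library had a mean of 2470, 1693 and 11020 member UMIs per cell, in the same order. For Lcn4 the immune level was 4.88 [3.19, 7.15], 1.40 [0.669, 2.57] and 124 [118, 130] CPM. The difference between the ages seen in gland-like cells was thus also present in immune cells, which are taken as not making it.

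Obp1a and Obp1b departed from this at 3 months. Gland-like cells held 6.14% of the Obp1a and 2.31% of the Obp1b UMIs of that library, against 75.2% to 83.2% for the other 5 members. Outside the gland-like cells 89.2% of the cells had 0 Obp1a and Obp1b UMIs and 3.93% [3.48, 4.42] had 10 or more, and the latter held 95.2% of the Obp1a and Obp1b UMIs found there. They were in every broad group: 2.49% [1.86, 3.27] of immune cells, 5.84% [3.44, 9.19] of VSNs, 4.57% [3.53, 5.81] of stromal cells, vessels and glia, and 3.97% [2.99, 5.16] of other epithelium. Of the 171 glia 0 had 10 or more. The stromal share includes 8 barcodes described next. Without those 8, the 262 cells with 10 or more had a mean of 26.7 Obp1a and 22.1 Obp1b UMIs. They also had 6.14 of Lcn11, 11.2 of Gm14744, 5.62 of Mup4 and 3.63 of Mup5, the last 3 being further lipocalins. In the 6133 cells with 0 Obp1a and Obp1b UMIs, Lcn11, Gm14744, Mup4 and Mup5 had a mean of 0.0957, 0.0121, 0.0186 and 0.00359 UMIs. The other members and gland genes were also higher, but by less. Lcn3 had a mean of 26.7 against 7.69 UMIs, Obp2a 66.2 against 24.5 and Lcn4 1.77 against 1.44. Wfdc18 had 109.7 against 27.8 and Ltf 23.9 against 6.57. At P10, 0 of 4586 and 0 of 3814 cells outside the gland-like cells had 10 such UMIs, which, counted as 3 cells, allows a share of up to 0.0654% and 0.0787%.

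In the smooth muscle and pericyte class of the 3-month library 8 barcodes held 29.6% of the Obp1a and Obp1b UMIs of that library. They had 318 to 554 Obp1a, 287 to 433 Obp1b, 79 to 127 Lcn11, 175 to 284 Lcn3 and 458 to 689 Obp2a UMIs, at depths of 14496 to 21586 UMIs. Their profiles were much alike. Over their 200 most counted genes the variance was 1.32 times that of random sampling, against 37.4 in the 57 other cells of that class with over 10000 UMIs. They also had a mean of 610.5 UMIs of Ighg2c, an immunoglobulin chain, and 48.1 of Acta2, the actin of smooth muscle, against 0.189 and 85.5 in the other cells of the class. Whether the 8 barcodes were separate cells was not tested, so the counts above may hold 1 source more than once. The other 132 cells of the class had a mean of 2.84 Obp1a and 2.64 Obp1b UMIs.

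**Figure D5:**
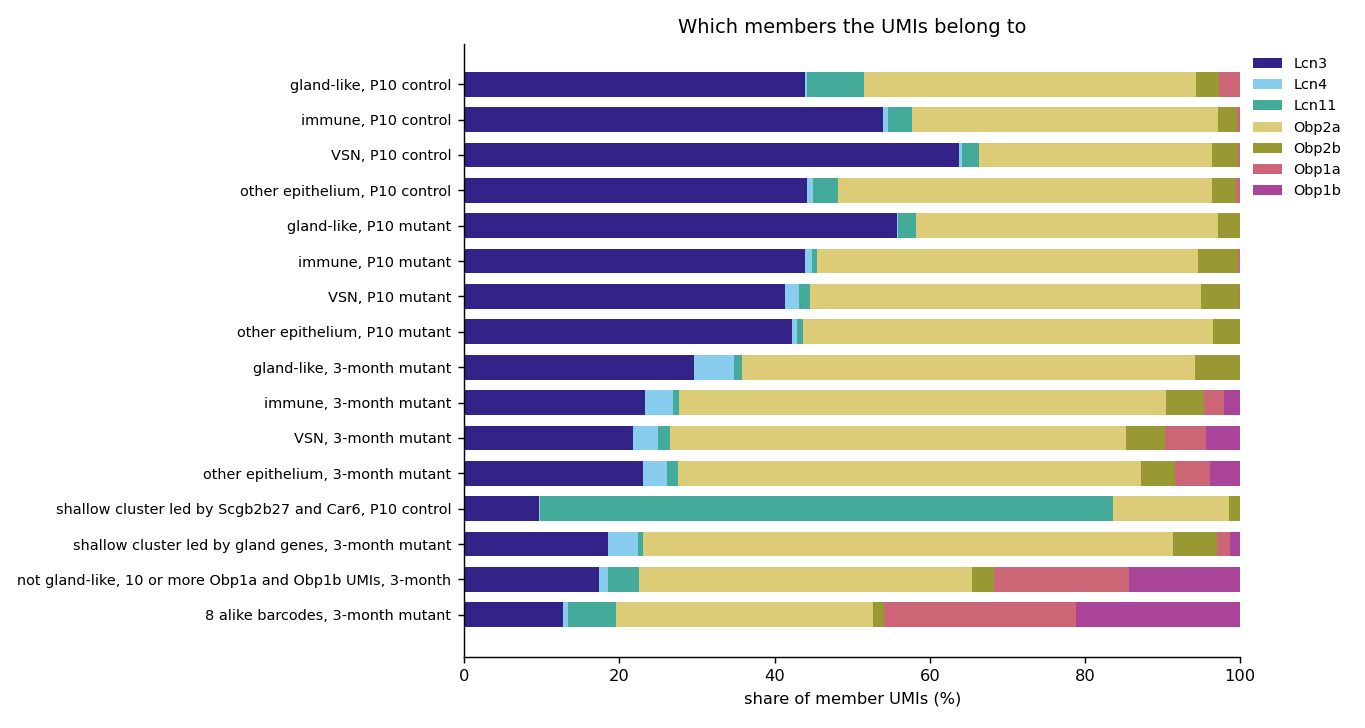
Share of the member UMIs that belonged to each member (x, %) in gland-like cells, immune cells, VSNs and other epithelium of each library, in both shallow clusters led by gland genes, in the 3-month barcodes with 10 or more Obp1a and Obp1b UMIs outside the gland-like cells, and in the 8 alike barcodes among the smooth muscle class. Lcn3 and Obp2a made up most of each bar except in the shallow P10 control cluster, where Lcn11 was 73.7%, and in the 8 alike barcodes, where Obp1a was 24.8% and Obp1b 21.1%.

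Gland genes also led 2 shallow clusters that were not called gland-like. The first given here also had B lineage genes among its leading genes. The second scored highest on macrophage and monocyte markers, with none of them among its leading genes. One cluster held 1162 barcodes of the 3-month library (16.7% of those kept) and 2 and 1 barcodes of the P10 libraries, with a median of 644 UMIs, and was led by Sbpl, Pip, Wfdc18, Dmbt1 and Pigr together with the antibody genes Igkc and Jchain. Its member level was 123780 CPM, and 145 of its barcodes held 76.9% of its 125490 member UMIs. The members there were 68.3% [68.1, 68.6] Obp2a and 18.5% [18.3, 18.8] Lcn3, against 58.5% and 29.7% in gland-like cells of that library. In the P10 control 111 barcodes with a median of 1235 UMIs formed another cluster, led by Scgb2b27, Car6, Scgb1b27, Csn3 and Ltf. Of their 3446 member UMIs 73.7% were Lcn11, at 17915 CPM, and Dmbt1 was not among its leading genes. Over the 107 of them with under 2500 UMIs the variance was 1.30 times that of sampling, against 1.35 to 4.16 in barcodes under that limit from other clusters. Those sets were not matched for depth, with medians of 637 to 2129.5 UMIs against 1226. Whether these 107 barcodes came from separate cells was not tested either.

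Single barcodes outside the gland-like cells held 100 or more member UMIs that made up at least 3% of their UMIs. The neuronal precursor cluster of the P10 control had 15 such barcodes of 251, with 96.5% of its member UMIs, and that of the P10 mutant 4 of 114 with 98.2%. Of the 15, all had UMIs of the water channel gene Aqp5, 12 of the cell division gene Ube2c, 9 of Dmbt1 and 1 of Neurod1, a gene of neuronal precursors. Their member UMIs were mostly Obp2a (42208 of 73510) and Lcn3 (28823). In the P10 control 83.4% of the member UMIs of the smooth muscle and pericyte class were in 2 of its 215 barcodes. Over all clusters 26, 9 and 205 barcodes met this limit, 145 of the 205 in the shallow 3-month cluster at a median of 911 UMIs, and they held 84709, 20908 and 123207 member UMIs.

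Other secretions of the gland-like cells were set beside the members by lists. Of 27 other lipocalins, 5 could be compared between the 3-month and the P10 mutant, of which 4 were at least 2-fold higher, against 1.81% of all genes compared (59.4% were at least 2-fold lower). They were Gm14744 with 1056 against 1 UMI, Mup4 with 65 against 0, Mup5 with 47 against 0, and Ptgds with 13 against 3 (3.45-fold [0.947, 18.9]). In the P10 control Gm14744 was at 1723 and Mup5 at 49.8 CPM. Mup4 and Mup5 were at 19.4 and 14.0 CPM in gland-like cells at 3 months. This was below the 67.2 and 51.6 of smooth muscle cells without the 8 alike barcodes. It was above the 2.46 and 0.474 of the 6133 other cells with 0 Obp1a and Obp1b UMIs. The comparison depends on the cells chosen, so neither gene is read as made by the gland-like cells. Lcn2, the siderophore-binding lipocalin, was at 134 against 345 CPM (0.389-fold [0.346, 0.435]). Of the 13 BPIF genes, which encode lipid-binding proteins of mucus, 3 could be compared and were higher at 3 months than in the P10 mutant. They were Bpifb3 with 1115 against 0 UMIs, Bpifa1 with 110 against 0 and Bpifb9a with 54 against 1. The P10 control had 40.9 CPM of Bpifb9a, above the 16.1 at 3 months. In the 6 gland-like cells of the 3-month library with under 20 member UMIs Bpifb9a was at 518 CPM. It was at 0 in those led by Lcn3 or by Obp2a. Bpifa1 was at 3638 CPM in the other cells of the 3-month library, far above the 32.8 of the gland-like cells. Of 29 other gland secretions 13 could be compared, 11 higher and 1 lower by at least 2-fold, beside the same shares over all genes. The highest ratios were those of Dcpp3 (563 against 0 UMIs), the lysozyme gene Lyz2 (381 against 3.38 CPM) and the trefoil peptide gene Tff2 (71.0 against 0.750). Dcpp3 was at 3482 CPM in the 6 cells of the 3-month library with under 20 member UMIs. It was at 107 in cells led by Obp2a and 0 in cells led by Lcn3. Lyz2 is also a macrophage gene, and the summed macrophage markers given above were 9.75 and 25.7 CPM, whose part in the result was not tested. At the other end were Ltf at 2.44-fold [2.41, 2.48], Dmbt1 at 1.92-fold [1.89, 1.95] and Wfdc2 at 0.426-fold [0.404, 0.448].

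The secretory machinery had lower ratios than the secretions. Of 18 genes of the endoplasmic reticulum, of secretory transcription factors and of fluid transport, 0 were at least 2-fold higher and 4 at least 2-fold lower at 3 months, against 1.81% and 59.4% of all genes compared, and their median log2 ratio was -0.66 against -1.16 for all genes. Sec11c, a subunit of the signal peptidase, was at 943 against 773 CPM (1.22-fold [1.15, 1.29]), Ssr4 at 682 against 562 and Tmed3 at 356 against 294. The lowest were Foxa1 with 6 against 13 UMIs, the ion transporter Slc12a2 at 0.356-fold [0.325, 0.389] and the sodium pump subunit Atp1b1 at 0.275-fold [0.251, 0.301].

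Over the 48 combinations of named class and library with at least 50 cells, the genes whose log2 level ran closest to the summed members were Wfdc18 (Pearson r = 0.95), Dmbt1 (0.93), Pip (0.88), Azgp1 (0.82) and BC051076 (0.79). Of these, 4 are on the list of gland markers, and points of 1 library share its member UMIs outside the gland-like cells. Within the 88 gland-like cells of the 3-month library, thinned to 500 UMIs, Obp2a and Obp2b were closest to each other (Spearman rho = 0.87). Lcn4 was closest to Obp2a (0.66) and Obp2b (0.62), and Lcn3 to Obp2b (0.66), the prolactin-induced protein gene Pip (0.59) and Obp2a (0.58). For Lcn11 the 3 closest were Ncl (0.37), Tomm6 (0.31) and Pim3 (0.30), and no member was among them. These are descriptions over cells of 1 library, in which cells with many member UMIs leave fewer of the 500 for other genes.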

How the data were processed

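The deposited files hold counts: the authors aligned 10x Genomics reads to mm10 with Cell Ranger and gave UMI counts per gene and barcode. Per the file headers the version was 4.0.0 for the P10 libraries and 6.0.1 for the 3-month library, and the submitters' processing notes also name bcl2fastq and Seurat 3.2.3. Here barcodes with 200 to 9000 genes and at most 10% mitochondrial UMIs were kept, log-normalised to 10000 UMIs and clustered with scanpy 1.11.5 (2000 variable genes without members or relatives, 30 components, 20 neighbors, Leiden resolution 1, seed 1). Clusters were named from marker lists, with a scoring rule set after the clusters were seen. A cluster whose median depth was under 1/3 of that of its libraries was not called gland-like. UMIs were summed per library and class and given per 1000000 UMIs (CPM). UMIs count molecules and were not divided by transcript length. Doublets were kept in the main values, and an automatic doublet caller marked 0 barcodes. There was 1 library per group, so no test was run, and "at least 2-fold" was used for genes with at least 10 UMIs. Named genes were the members, the 5 and 3 genes most like them, and, in each list, those with the 3 largest and 3 smallest ratios. Gland markers given for cells led by 1 member, and genes of barcodes outside the gland-like cells, were chosen after their values were seen. The intervals of ratios were tried on simulated Poisson counts, which have no spread between cells. That cannot show how they hold where 1 cell has most UMIs of a member. The members and lists were chosen with earlier results of these data known.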

Additional observations from a re-analysis of the deposited data

How the results depend on the processing

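No paired analysis was possible because each group was 1 library. Of 57 alternative values of the summed levels, shares and counts 40 moved, and all 40 were ratios or shares that left their counting interval. The counts of members have no such interval and were judged by a fold limit, within which all of them stayed. Of 110 values for single genes 72 left the counting interval and 3 turned direction. The summed ratio of the 3-month to the P10 mutant, 3.21, was 3.93 with at most 5% mitochondrial UMIs, 3.33 with at least 500 genes, 2.51 with the libraries clustered separately, 3.41 with members among the clustering genes, 2.56 with cells taken one by one, 3.29 as a mean over cells, 3.06 without doublets and 4.11 with members and relatives out of the denominator. In the same order, without the value for doublets, that of the P10 mutant to the P10 control, 0.747, was 0.753, 0.704, 0.669, 0.686, 0.658, 0.660 and 0.721. Neither summed ratio changed direction under these settings.

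The share of member UMIs in gland-like cells (P10 control, P10 mutant, 3-month mutant) was 81.0%, 72.6% and 72.9% with at most 5% mitochondrial UMIs, 74.1%, 87.1% and 86.4% with at least 500 genes, 73.7%, 87.5% and 82.7% with members among the clustering genes, 97.5%, 97.6% and 79.5% with cells taken one by one, and 83.1%, 90.8% and 71.6% without doublets. Clustering the libraries separately gave 79.1% (P10 control) and 74.5% (3-month mutant). Cells taken one by one were 2042, 1099 and 3860, against 209, 142 and 88 in the cluster, so that setting takes in cells with few member UMIs.

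Between the P10 libraries Lcn3 turned to 1.43-fold and Lcn4 to 1.89-fold with at most 5% mitochondrial UMIs, which left 87 and 28 gland-like cells, and Lcn11 to 2.29-fold with the libraries clustered separately. With at most 5% mitochondrial UMIs Lcn11 was at 0.00112-fold between the P10 libraries. Between the ages Lcn11 passed 2-fold with at least 500 genes (3.07), with members among the clustering genes (2.41), as a mean over cells (2.09) and with at most 5% mitochondrial UMIs (419). The cause was not tested.

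Settings chosen after seeing the data were the addition of the shallow cluster led by gland genes, which gave 2.78 for the age ratio and shares of 89.4% and 86.9% in the P10 and 3-month mutants, and leaving out the cell with most member UMIs of each library, which gave 3.34 and 0.715 for both ratios and shares of 80.7%, 88.2% and 74.2%. With 88 gland-like cells at 3 months and 1 library a group, values for Lcn11, Obp1a and Obp1b rest on single cells. The 3-month level of Lcn4 also leaned on few cells, with 36.7% of its UMIs in 1 cell.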
